A study of Mus musculus with 24 samples.

Results

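The first hours of the light phase were followed in mouse pancreatic islet cells, the glucagon-producing alpha cells and the insulin-producing beta cells. The 4 libraries from islets isolated at zeitgeber time 4 (ZT4, 4 h after lights on) were set against the 4 libraries from islets isolated at ZT0 (lights on), with the cell type as a factor, and the step was also taken in each cell type alone. ZT4 comprised 2 alpha and 2 beta libraries, and ZT0 likewise comprised 2 alpha and 2 beta libraries, so that 8 of the 24 libraries of the series were compared. The rest of the series covered ZT8, ZT12, ZT16 and ZT20 in the same cell types. All cells came from a strain the labels call triple reporter mouse, with islets isolated at 11 in the morning for ZT4 and at 7 in the morning for ZT0. The reporter alleles and their promoters, and the sex, age and feeding of the mice, were not found in the labels.

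The circadian clock of a cell is a transcriptional loop. CLOCK and BMAL1 (the product of Arntl) activate genes through E-box elements, the PER and CRY proteins made from such genes inhibit that activation, and the nuclear receptors REV-ERB (Nr1d1, Nr1d2) and ROR (Rora and Rorb among them) repress and activate genes through a shared response element. In islets the clock is known to act on hormone secretion, and mice are nocturnal, so ZT0 to ZT4 is the start of their rest phase.

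The 8 libraries held 8869212 to 12219276 reads assigned to the 14027 genes of the table. The cell types could be recognised by their hormones, with Gcg (glucagon) at 97700 to 151000 RPKM (reads scaled to gene length and library size) in the 4 alpha libraries and 131 to 1910 RPKM in the 4 beta libraries. Replicates of these groups were further apart than those of other times, with a median SD over genes, on the log2 scale, of 0.159 (alpha) and 0.175 (beta) at ZT4 and 0.19 (alpha) and 0.248 (beta) at ZT0, against 0.0726 to 0.134 in the other 8 groups. Alpha and beta libraries with the same time and replicate number deviated together (Pearson correlation across genes, which are not independent replicates, 0.52 at ZT4 and 0.7 at ZT0). At ZT4, replicate 1 stood apart from replicate 2 in both cell types by heat shock genes (Hspa1a at 28 and 1.06 RPKM in alpha and at 12.6 and 0.445 RPKM in beta cells) and by hormone of the other cell type (Ins2 at 3640 and 898 RPKM in alpha cells, Gcg at 1910 and 131 RPKM in beta cells). Whether replicates stem from different mice is not in the labels, and p-values therefore reflect library-to-library spread alone, part of which may be technical.

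Between ZT0 and ZT4 the REV-ERB genes Nr1d2 and Nr1d1, the fatty acid import gene Cpt1a and the metallothionein genes Mt2 and Mt1 rose. The clock gene Cry1, the spermidine synthase gene Srm, the endoplasmic reticulum gene Lrrc59 and the GDP-mannose synthesis gene Gmppb fell. Of 14027 genes, 641 (4.57%) changed in the mean of the cell types, 313 (2.23%) higher and 328 (2.34%) lower at ZT4 (limma, Benjamini-Hochberg adjusted p under 0.05 over all genes). Of the 641, 637 had one direction in both cell types and 576 (89.9%) had no overlap between the ZT4 and ZT0 libraries in either cell type. Both follow in part from choosing genes by a low p in the same libraries, and are no separate support. Over all genes, 11.8% had no overlap in one direction in both cell types (6.65% higher and 5.19% lower). At a fold of at least 1.5, 239 remained, 137 higher and 102 lower. The fit took its estimate of spread from all 24 libraries. Replicates of the groups compared here lay further apart than those of the other groups, so the SE and p-values may be too small for this step. With alpha and beta libraries of 1 time and number treated as 1 islet preparation, 209 genes (1.49%) were called, 85 higher (0.606%) and 124 lower (0.884%), all of them among the 641, and with the spread of the 8 libraries alone 5 were called, among them Nr1d2, Nr1d1, Cpt1a and Cry1. The count also rested on single libraries, with 283 called without replicate 2 of ZT4 alpha, 293 without replicate 2 of ZT4 beta, 376 without replicate 1 of ZT0 alpha and 1208 without replicate 1 of ZT0 beta.

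**Figure D1:**
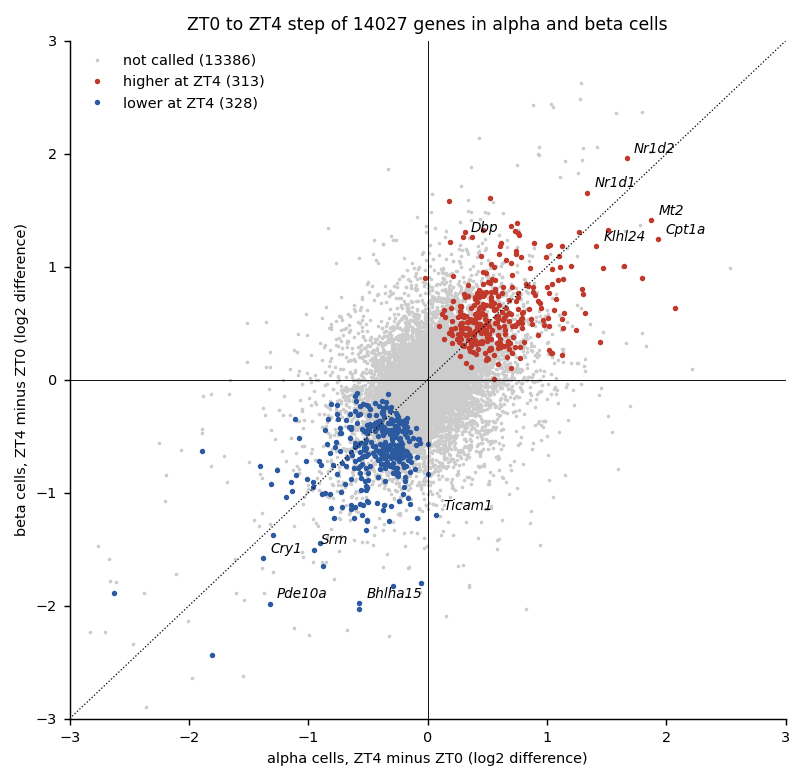
Difference between ZT4 and ZT0 of every gene on the log2 scale, alpha cells on the horizontal and beta cells on the vertical axis, with genes called in the mean of the cell types in red (313 higher at ZT4) and blue (328 lower) and the dotted line at equality. Nr1d2, Nr1d1, Mt2 and Cpt1a lie at the upper right, Cry1 at the lower left, and 8 genes fall outside the axes.

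Of 20 core clock genes, 4 rose, 3 fell and 13 did not pass the test, against 4.57% of all genes called. The largest rise was that of Nr1d2, which encodes the repressor REV-ERB beta and lies on chromosome 14 from 18204054 to 18239127 (mm10, minus strand, protein-coding). Nr1d2 had 14.9 and 13.9 RPKM in ZT4 alpha cells and 4.14 and 4.91 RPKM in ZT0 alpha cells, and 26.1 and 30.8 RPKM in ZT4 beta cells and 7.78 and 6.75 RPKM in ZT0 beta cells. Every ZT4 library lay above every ZT0 library of its cell type, and the rise was 3.52-fold (log2 difference 1.81, SE 0.1, limma adjusted p = 4.6e-08). Its paralog Nr1d1 (REV-ERB alpha) had 3.17 and 3.18 RPKM in ZT4 alpha cells and 1.13 and 1.32 RPKM in ZT0 alpha cells. In beta cells Nr1d1 had 7.84 and 8.05 RPKM at ZT4 and 2.27 and 2.72 RPKM at ZT0. The groups of Nr1d1 did not overlap, and it rose 2.82-fold (log2 difference 1.5, SE 0.16, limma adjusted p = 8.4e-05). Both REV-ERB genes were also called in each cell type alone. The alpha call of Nr1d1 (adjusted p = 0.018) ended without replicate 1 or without replicate 2 of ZT4 alpha and without replicate 1 of ZT0 alpha.

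Rora and Rorb encode receptors of the ROR class, which bind the same element as REV-ERB. Rora (ROR alpha) rose 1.4-fold, with 8.15 and 9.7 RPKM in ZT4 alpha cells against 5.84 and 5.82 RPKM in ZT0 alpha cells and 9.91 and 10.9 RPKM in ZT4 beta cells against 8.68 and 7.55 RPKM in ZT0 beta cells (limma adjusted p = 0.0027). The groups of Rora did not overlap, but it was not called without replicate 2 of ZT4 in both cell types (adjusted p = 0.059). Rorb did not pass the test, and its highest library had 0.199 RPKM.

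Cry1, a repressor of CLOCK and BMAL1, lies on chromosome 10 from 85131700 to 85185064 (mm10, minus strand, protein-coding). Cry1 had 5.04 and 5.94 RPKM in ZT4 alpha cells and 16.9 and 12.2 RPKM in ZT0 alpha cells, and 3.81 and 4.33 RPKM in ZT4 beta cells and 12.1 and 12.5 RPKM in ZT0 beta cells. It fell 2.8-fold (log2 difference -1.48, SE 0.13, limma adjusted p = 1e-05), with every ZT4 library below every ZT0 library. Per2, a partner of CRY, had 5.22 and 3.21 RPKM in ZT4 alpha cells and 7.88 and 13.3 RPKM in ZT0 alpha cells, and 5.54 and 3.81 RPKM in ZT4 beta cells and 6.07 and 12.6 RPKM in ZT0 beta cells. The groups of Per2 did not overlap, but replicates differed, and the fall of 2.17-fold (log2 difference -1.12, SE 0.21, limma adjusted p = 0.0062) was not called without replicate 2 of ZT4 in both cell types. Dbp, which encodes an activator that binds D-box elements, had 5.08 and 4.47 RPKM in ZT4 alpha cells and 3.81 and 3.93 RPKM in ZT0 alpha cells, and 10.5 and 8.23 RPKM in ZT4 beta cells and 3.57 and 4.14 RPKM in ZT0 beta cells. Its log2 difference was 0.3 in alpha cells (limma adjusted p = 0.6) and 1.26 in beta cells (adjusted p = 0.0017), and the difference between these steps did not pass (limma adjusted p = 0.59).

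The other 13 core clock genes had log2 differences between -0.6 (Per1) and 0.69 (Rorb). Arntl had 10.8 and 9.1 RPKM in ZT4 alpha cells and 11.7 and 12.7 RPKM in ZT0 alpha cells, and 8.88 and 8.91 RPKM in ZT4 beta cells and 12.9 and 14.3 RPKM in ZT0 beta cells. Its ZT4 libraries lay below its ZT0 libraries in both cell types, with a log2 difference of -0.45 that did not pass (limma adjusted p = 0.16). Per1, which also responds to acute stimuli, had 11.8 and 6.81 RPKM in ZT4 alpha cells and 9.63 and 18 RPKM in ZT0 alpha cells, so that its replicates overlapped between the times (adjusted p = 0.35). Clock differed by 0.01 on the log2 scale (adjusted p = 0.95). Cry2, Per3, Npas2, Tef, Hlf, Nfil3, Bhlhe40, Bhlhe41 and Ciart did not pass either. Of 14 clock kinase and ubiquitin ligase genes, 1 rose and 0 fell.

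**Figure D2:**
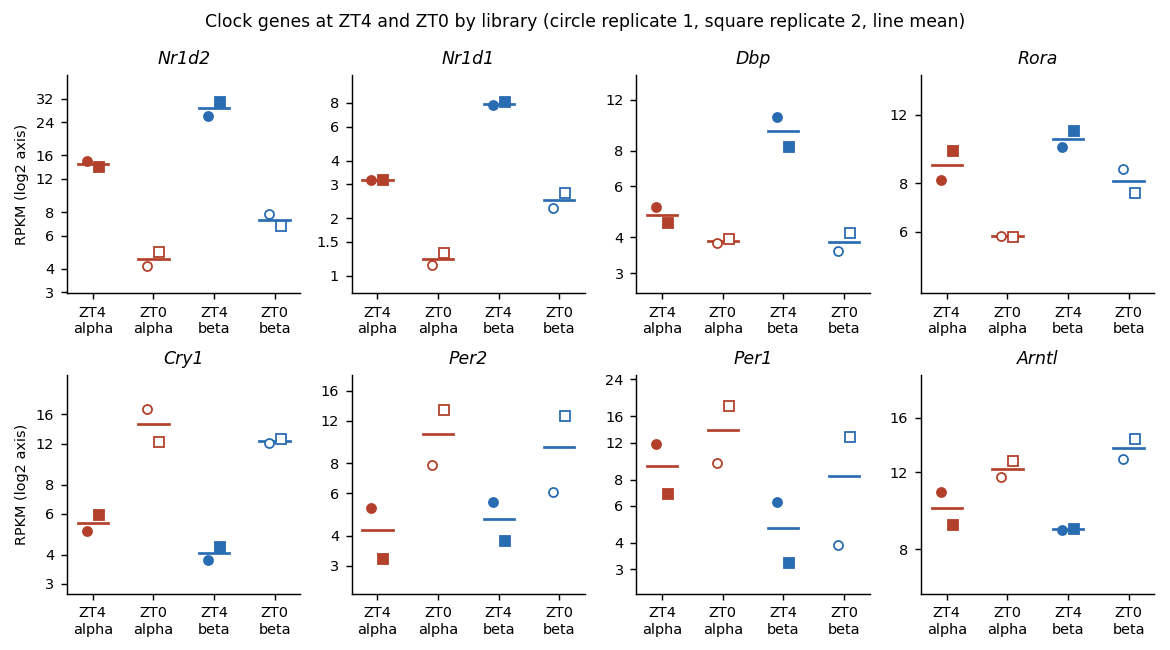
RPKM on a log2 axis of 8 clock genes in the libraries of ZT4 and ZT0 (filled and open symbols), by cell type, with lines at the means of 2 libraries. The REV-ERB genes Nr1d2 and Nr1d1 are higher and Cry1 lower in every ZT4 library, while replicates of Per2 lie apart.

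The promoter of Cry1 is shown because it carries the element through which CLOCK and BMAL1 act. In the RefSeq window of 250 bases before and 50 bases after the annotated start (GRCm38.p6, chr10:85185005-85185304, minus strand), capitals mark an E-box match (CACGTG, read on both strands) at -60 relative to the start.
Cry1: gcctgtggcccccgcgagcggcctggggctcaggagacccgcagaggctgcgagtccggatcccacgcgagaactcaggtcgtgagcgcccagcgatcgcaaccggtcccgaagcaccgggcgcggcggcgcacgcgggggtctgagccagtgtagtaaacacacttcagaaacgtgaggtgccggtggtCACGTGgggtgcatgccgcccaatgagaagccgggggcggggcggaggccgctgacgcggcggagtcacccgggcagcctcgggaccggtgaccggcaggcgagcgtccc
E-box matches were found in 7.15% of 32851 such windows. The windows of Nr1d2, Nr1d1, Rora and Dbp held none of the searched letters (CACGTG; TTATGTAA or TTACGTAA for the D-box; TAGGTCA for the ROR element, all on both strands), where D-box letters occurred in 1.06% and ROR element letters in 2.61% of all windows. Clock genes that were not called also held matches, to the E-box in Ciart, Per1, Tef and Bhlhe41, to the D-box in Per3 and to the ROR element in Arntl and Nfil3. Per2 was not searched. A match in letters is a description of the sequence and not a site of binding.

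Outside the clock, Cpt1a had the lowest p among genes that rose. Cpt1a encodes carnitine palmitoyltransferase 1A, the rate-limiting enzyme for entry of long-chain fatty acids into mitochondria, and lies on chromosome 19 from 3322334 to 3385733 (mm10, plus strand, protein-coding). It had 16.6 and 24.1 RPKM in ZT4 alpha cells and 5.39 and 5.02 RPKM in ZT0 alpha cells, and 16.7 and 16.2 RPKM in ZT4 beta cells and 6.46 and 7.4 RPKM in ZT0 beta cells. Cpt1a rose 3-fold with no overlap in either cell type (log2 difference 1.59, SE 0.13, limma adjusted p = 1e-05) and was called in alpha and in beta cells alone. Abca1, the cholesterol efflux transporter, had 34.5 and 40.9 RPKM in ZT4 alpha cells and 17.1 and 20.7 RPKM in ZT0 alpha cells, and 53 and 61.8 RPKM in ZT4 beta cells and 35 and 29.9 RPKM in ZT0 beta cells. It rose 1.88-fold (log2 difference 0.91, SE 0.12, limma adjusted p = 0.00077) without overlap.

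The metallothionein genes Mt2 and Mt1, whose small proteins bind zinc and copper, lie side by side on chromosome 8 and rose together. Mt2 had 43.9 and 59.4 RPKM in ZT4 alpha cells and 17.9 and 10.5 RPKM in ZT0 alpha cells, and 86.4 and 144 RPKM in ZT4 beta cells and 55.4 and 31.6 RPKM in ZT0 beta cells. Its ZT4 libraries were the higher ones in both cell types, and the rise was 3.12-fold (log2 difference 1.64, SE 0.21, limma adjusted p = 0.00077). Mt1 had 117 and 163 RPKM in ZT4 alpha cells and 53.5 and 43.7 RPKM in ZT0 alpha cells, and 367 and 665 RPKM in ZT4 beta cells and 251 and 155 RPKM in ZT0 beta cells. It rose 2.67-fold without overlap (log2 difference 1.42, SE 0.23, limma adjusted p = 0.0032), although the call was lost without replicate 2 of ZT4 in both cell types. The promoters of this pair are shown because the genes moved together and are known targets of the metal-responsive factor MTF1. Capitals mark matches to the core of the metal response element (TGCACNC or TGCGCNC, both strands), a motif searched for after the values were seen, in the RefSeq windows of Mt2 (GRCm38.p6, chr8:94172368-94172667, plus strand) and Mt1 (chr8:94178839-94179138, plus strand).
Mt2: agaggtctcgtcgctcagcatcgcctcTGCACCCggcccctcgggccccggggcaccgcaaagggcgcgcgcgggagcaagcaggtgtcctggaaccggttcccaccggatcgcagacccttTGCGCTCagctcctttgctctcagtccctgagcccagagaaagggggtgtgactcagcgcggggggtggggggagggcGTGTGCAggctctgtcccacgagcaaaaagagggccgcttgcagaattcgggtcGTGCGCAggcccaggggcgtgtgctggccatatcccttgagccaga
Mt1: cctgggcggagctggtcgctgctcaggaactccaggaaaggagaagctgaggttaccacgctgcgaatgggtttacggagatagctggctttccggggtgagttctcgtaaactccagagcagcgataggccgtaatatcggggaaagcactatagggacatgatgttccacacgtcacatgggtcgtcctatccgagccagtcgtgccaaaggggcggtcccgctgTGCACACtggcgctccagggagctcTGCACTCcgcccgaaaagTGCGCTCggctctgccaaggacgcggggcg
The window of Mt2 held 4 matches and that of Mt1 held 3. At least 1 match was found in 25.7% of the 32851 windows, and 4 or more in 0.517%. Metallothioneins were listed with glucocorticoid and fasting targets, of which 2 of 12 rose (Mt2 and Mt1), 0 fell, and the others did not pass. Of the 12, 7 lay above 0. The glucocorticoid target Fkbp5 had a log2 difference of 0.17 (limma adjusted p = 0.32) and Tsc22d3 one of 0.15 (adjusted p = 0.43). Larger values went both ways, with Sgk1 at -0.98 (adjusted p = 0.073), Per1 at -0.6 (0.35) and Pdk4 at 0.95 (0.36).

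Klhl24, which encodes an adaptor of a cullin ubiquitin ligase, had 20.2 and 26.5 RPKM in ZT4 alpha cells and 7.3 and 10.3 RPKM in ZT0 alpha cells, and 24.6 and 35.2 RPKM in ZT4 beta cells and 14.6 and 11.5 RPKM in ZT0 beta cells. It rose 2.46-fold without overlap (log2 difference 1.3, SE 0.17, limma adjusted p = 0.00077). The remaining genes with the lowest p among those that rose did so by smaller folds. They were Rsph4a, a radial spoke protein of cilia (2.14-fold, at most 1.74 RPKM), Sun2 of the nuclear envelope (1.8-fold), the FoxO target Ccng2 or cyclin G2 (1.75-fold), Zc3h6 (1.65-fold), the nuclear receptor coactivator gene Ncoa7 (1.56-fold), Pcmtd2 (1.41-fold) and the phosphatase gene Ctdsp2 (1.37-fold). In each of these genes both ZT4 libraries lay above both ZT0 libraries in alpha and in beta cells, and the limma adjusted p lay between 0.00093 and 0.0025.

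Outside the clock, Srm had the lowest p among genes that fell. Srm encodes spermidine synthase of the polyamine pathway and lies on chromosome 4 from 148591503 to 148594993 (mm10, plus strand, protein-coding). It had 8.77 and 7.4 RPKM in ZT4 alpha cells and 18.1 and 13.7 RPKM in ZT0 alpha cells, and 13.6 and 8.77 RPKM in ZT4 beta cells and 31.5 and 31.1 RPKM in ZT0 beta cells. Srm fell 2.35-fold without overlap (log2 difference -1.23, SE 0.12, limma adjusted p = 5.1e-05) and was called in each cell type.

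Bhlha15 encodes MIST1, a transcription factor of secretory cells best known from the acinar pancreas. It had 3.3 and 3.34 RPKM in ZT4 alpha cells and 5.93 and 4.16 RPKM in ZT0 alpha cells, and 9.22 and 5.05 RPKM in ZT4 beta cells and 24.7 and 29.7 RPKM in ZT0 beta cells. Its fall was 2.42-fold in the mean of the cell types (log2 difference -1.28, SE 0.16, limma adjusted p = 0.00065), with a log2 difference of -1.98 in beta cells (adjusted p = 0.0003) and -0.57 in alpha cells (adjusted p = 0.36). The difference between these steps did not pass (limma adjusted p = 0.56). Of 17 measured acinar markers 16 had a value above 0 for the step and 1, Bhlha15, fell, with 0 of the 16 called and a median log2 difference of 1.54 over the list. At an unadjusted limma p under 0.05 there were 8 of the 17, Bhlha15 among them, beside 2710 of all 14027 genes. The part of acinar RNA in the value of Bhlha15 was not tested. Their summed level without Bhlha15 was 326 and 175 RPKM in ZT4 alpha cells and 43.3 and 279 RPKM in ZT0 alpha cells, and 480 and 257 RPKM in ZT4 beta cells and 57.3 and 106 RPKM in ZT0 beta cells, and every marker had reads in all 8 libraries. In bulk cells, a smaller number of cells with a transcript and less transcript per cell cannot be told apart.

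Further genes with the lowest p among those that fell are given by what they encode. Lrrc59, a ribosome-binding protein of the endoplasmic reticulum, had 20.4 and 19.7 RPKM in ZT4 alpha cells and 31.9 and 27.3 RPKM in ZT0 alpha cells, and 33.9 and 29.7 RPKM in ZT4 beta cells and 64.4 and 60.7 RPKM in ZT0 beta cells. It fell 1.7-fold without overlap (log2 difference -0.77, SE 0.077, limma adjusted p = 5.9e-05). Gmppb, which makes GDP-mannose, had 13.1 and 11 RPKM in ZT4 alpha cells and 20.1 and 17.5 RPKM in ZT0 alpha cells, and 23.2 and 15.6 RPKM in ZT4 beta cells and 43.1 and 41.2 RPKM in ZT0 beta cells. The libraries of Gmppb did not overlap, and it fell 1.86-fold (limma adjusted p = 0.00065). Uap1, which makes UDP-N-acetylglucosamine, fell 1.42-fold, and Nans, a sialic acid synthase, fell 1.47-fold (limma adjusted p = 0.00093 for each). The ribosome biogenesis genes Rrp12 and Bysl fell 1.91-fold and 1.74-fold (adjusted p = 0.00077 and 0.00093). The last of the genes with the lowest p among those that fell were Cdr2 (1.92-fold), the dipeptidase gene Cndp2 (1.61-fold), Trabd (1.46-fold) and Rusc1 (1.44-fold), and in all of them the ZT4 libraries lay below the ZT0 libraries of both cell types. The beta step was -0.89 for Trabd and -0.86 for Rusc1 on the log2 scale. In alpha cells Trabd had 12.6 and 12.9 RPKM at ZT4 and 14.9 and 14.1 RPKM at ZT0. Rusc1 had 4.67 and 4.88 RPKM in ZT4 alpha cells and 5.52 and 5.36 RPKM in ZT0 alpha cells. For neither gene did the difference between the steps pass (limma adjusted p = 0.56).

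The 28 genes named by the lowest p in the mean of the cell types, 14 in each direction, kept their call without any 1 of the 8 libraries and with the islet preparation as a block. They were chosen for low p in these same libraries, and with the spread of the 8 libraries alone 5 of the 28 kept it.

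**Figure D3:**
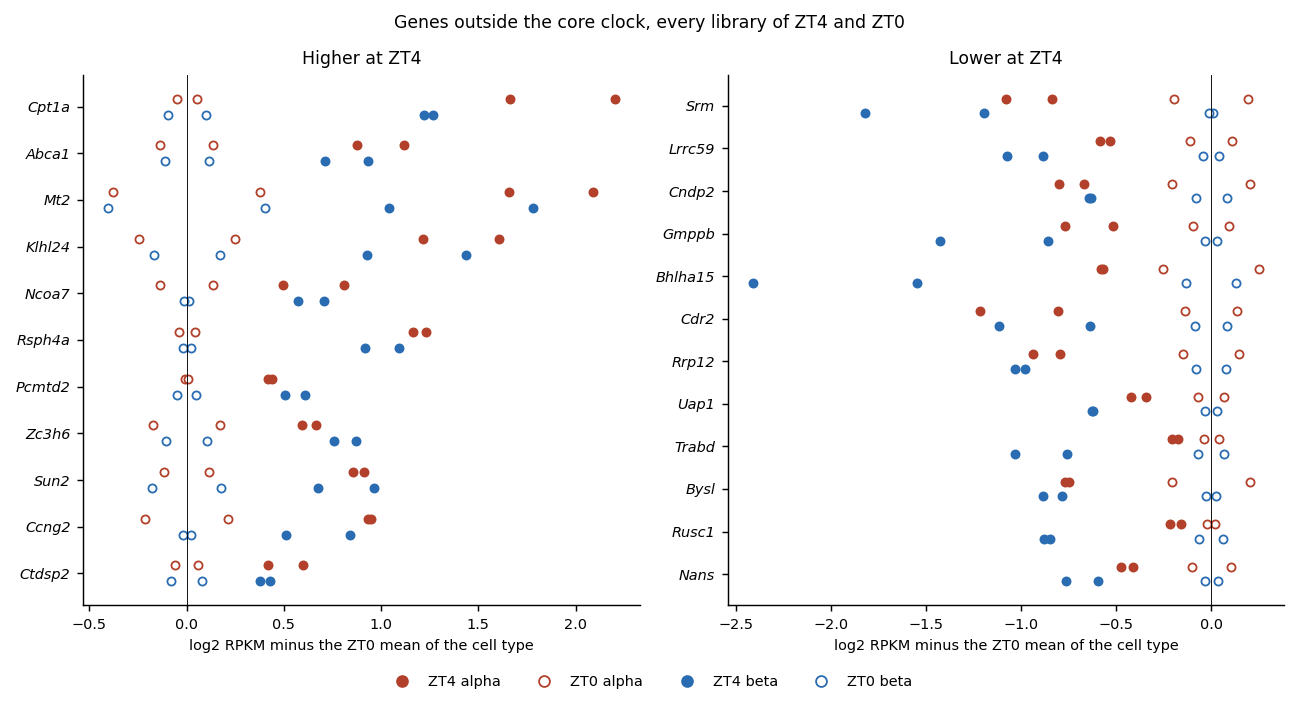
Log2 RPKM of the genes outside the core clock among those with the lowest p, each library minus the ZT0 mean of its cell type, with filled points for ZT4 and open points for ZT0. Cpt1a and Mt2 show the largest rises in alpha cells, and Bhlha15 the largest fall, in beta cells.

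The fixed gene lists were read against the share of all genes called, 2.23% higher and 2.34% lower, and a median log2 difference of 0 over all genes. Of 24 genes of sterol synthesis, 6 fell and 0 rose, and 22 lay at or below 0, with a median of -0.27. Pmvk, a kinase of the mevalonate pathway, had 10.6 and 11.1 RPKM in ZT4 alpha cells and 15.2 and 16.1 RPKM in ZT0 alpha cells, and 8.33 and 7.24 RPKM in ZT4 beta cells and 14.2 and 15 RPKM in ZT0 beta cells. It fell 1.64-fold without overlap (limma adjusted p = 0.004). The lanosterol demethylase gene Cyp51 fell 1.57-fold (adjusted p = 0.0083). Lss (lanosterol synthase, 1.39-fold), Mvd (1.66-fold), Hsd17b7 (1.77-fold) and Fdps (1.43-fold) also fell, but were not called with the islet preparation as a block (adjusted p between 0.058 and 0.14), which left 2 calls in the list. The Lss call also ended without replicate 2 of ZT4 alpha or of ZT4 beta, and that of Mvd without replicate 1 of ZT4 alpha, of ZT4 beta or of ZT0 alpha. In 9 of the 24 both ZT4 libraries lay below both ZT0 libraries in each cell type, against 5.19% of all genes. The feedback regulator gene Insig1 (log2 difference 0.08) did not pass (adjusted p = 0.83). Of 17 genes of fatty acid synthesis and lipid storage, 1 fell, the desaturase gene Scd2 (log2 difference -0.42, limma adjusted p = 0.043, and 0.097 with the block).

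Of 31 genes of the unfolded protein response, 4 fell and 0 rose, with a median log2 difference of -0.18, and -0.29 in beta cells against -0.04 in alpha cells. Dnajb11, a co-chaperone of the endoplasmic reticulum, had 10.9 and 9.56 RPKM in ZT4 alpha cells and 16.3 and 13.2 RPKM in ZT0 alpha cells, and 35.3 and 32.7 RPKM in ZT4 beta cells and 54 and 54.9 RPKM in ZT0 beta cells. It fell 1.51-fold without overlap (limma adjusted p = 0.0047). Hspa5, which encodes the chaperone BiP, had 303 and 321 RPKM in ZT4 alpha cells and 418 and 325 RPKM in ZT0 alpha cells, and 525 and 506 RPKM in ZT4 beta cells and 900 and 806 RPKM in ZT0 beta cells (fall 1.4-fold, adjusted p = 0.03). Manf (1.36-fold, adjusted p = 0.039) and Eif2ak3, which encodes the sensor kinase PERK (1.26-fold, adjusted p = 0.05 as rounded), fell by less. Of 27 other settings of the fit, Eif2ak3 kept its call in 9, Manf in 10, Hspa5 in 12 and Dnajb11 in 21. With the islet preparation as a block Dnajb11 alone was called, with adjusted p = 0.086 for Hspa5, 0.11 for Manf and 0.14 for Eif2ak3. The calls of Hspa5 and Manf each ended without any 1 of at least 5 of the 8 libraries. In the alpha step 0 members were called, where 0.171% of all genes fell, and in the beta step 4 fell, where 1.16% of all genes fell. The difference between the cell types was not tested for the list.

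Signalling and secretion lists held at most 2 calls each, where 2.23% of all genes rose and 2.34% fell. Of 22 genes of cAMP and CREB signalling, 2 fell and 0 rose, with a median log2 difference of -0.12. Pde10a, a cyclic nucleotide phosphodiesterase, had 1.95 and 1.76 RPKM in ZT4 alpha cells and 3.81 and 5.69 RPKM in ZT0 alpha cells, and 2.12 and 1.21 RPKM in ZT4 beta cells and 4.02 and 10.1 RPKM in ZT0 beta cells. It fell 3.15-fold without overlap (log2 difference -1.65, SE 0.25, limma adjusted p = 0.0022), and the transcription factor gene Crem fell 1.61-fold (adjusted p = 0.023, and 0.078 with the block). Of 22 receptors of secretion, 2 rose, the muscarinic receptor gene Chrm3 (1.4-fold, adjusted p = 0.029) and the adrenergic receptor gene Adra2a (1.55-fold, adjusted p = 0.049), neither of them with the block (0.08 and 0.17). In the mean of the cell types 20 of the 22 receptors lay above 0, with a median of 0.22. Slc7a2, a cationic amino acid transporter, rose 1.38-fold (adjusted p = 0.016, and 0.091 with the block) as the 1 call among 14 amino acid transporters. Of these transporters 12 lay above 0, with a median of 0.23. Scn9a rose among 27 genes of glucose sensing and excitability (1.27-fold, adjusted p = 0.015, and 0.086 with the block), Atg14 among 24 of autophagy and lysosome (1.38-fold, 0.023, and 0.065 with the block), Ccng2 among 17 of FoxO and insulin receptor signalling, and the cold-inducible Cirbp among 18 heat shock and cold-inducible genes (1.41-fold, 0.035, and 0.086 with the block). Apart from Pde10a and Ccng2, each gene named here lost its call without at least 1 single library.

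Of 21 immediate early genes, which respond to acute stimulation and to tissue handling, 0 were called by limma. At an unadjusted p under 0.05 there was 1, beside 2710 of all 14027 genes. In this list 3 lay above 0, with a median log2 difference of -0.41. Their replicates lay far apart. Fos had 532 and 186 RPKM in ZT4 alpha cells and 412 and 563 RPKM in ZT0 alpha cells, and 241 and 122 RPKM in ZT4 beta cells and 192 and 279 RPKM in ZT0 beta cells (adjusted p = 0.66). Fosl2 (-1.75, adjusted p = 0.14) and Nr4a1 (-2.09, adjusted p = 0.32) had the lowest p of the list.

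No member of the remaining pathway lists was called by limma in the mean of the cell types. Over all genes, 2710 of 14027 had an unadjusted p under 0.05. The lists comprised 74 cytosolic ribosomal protein genes (0 at an unadjusted p under 0.05, median 0.05) and 42 of oxidative phosphorylation (5 unadjusted, median -0.05). Others were 28 of exocytosis (5 unadjusted, median -0.03), 14 of prohormone processing and granules (0 unadjusted, median 0.11) and 20 antioxidant and NRF2 genes (3 unadjusted, median 0.04). The last were 27 of splicing and RNA binding (4 unadjusted, median -0.19), 19 of the cell cycle (3 unadjusted, median 0.02) and 7 long noncoding RNAs (1 unadjusted, median -0.65). Of the ribosomal protein genes 53 lay below 0 in alpha cells and 64 above 0 in beta cells. Of the oxidative phosphorylation genes 39 lay below 0 in alpha and 24 above 0 in beta cells, which was not tested. The cell cycle gene Ccnd1 (cyclin D1) fell in the beta step alone, with 54.4 and 52.8 RPKM in ZT4 beta cells and 75.8 and 72.2 RPKM in ZT0 beta cells (limma adjusted p = 0.036), and the difference from the alpha step did not pass (adjusted p = 0.85).

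The hormone genes did not pass the test. Gcg had 101000 and 147000 RPKM in ZT4 alpha cells and 151000 and 97700 RPKM in ZT0 alpha cells, so that the times overlapped (limma adjusted p = 1 in alpha cells). Ins2 had 160000 and 240000 RPKM in ZT4 beta cells and 208000 and 127000 RPKM in ZT0 beta cells (adjusted p = 0.88 in beta cells), and Ins1 overlapped likewise in beta cells. Sst and Ppy, hormones of delta and PP cells, overlapped in alpha cells and did not pass (limma adjusted p = 0.69 and 0.28 in the mean of the cell types). In beta cells Ppy overlapped too, while Sst had 1290 to 1400 RPKM at ZT4 and 959 to 1270 RPKM at ZT0, without overlap. Of 13 alpha cell identity genes 2 rose, Slc7a2 and Dpp10 (1.27-fold, adjusted p = 0.033, and 0.14 with the block). In beta cells 11 of the 13 lay above 0, with a median log2 difference of 0.44 (Dpp10 0.58), against 7 of 13 and a median of 0.01 in alpha cells (Dpp10 0.12). Of 18 beta cell identity genes 0 were called (1 unadjusted). In alpha cells 16 of the 18 lay above 0, with a median of 0.51, against 11 of 18 and a median of 0.13 in beta cells. The genes of each identity list thus had the larger median in the other cell type, in which ZT4 replicate 1 also held the most hormone of the opposite kind, and the difference between the medians was not tested. No call was made among 6 delta cell (0), 3 PP cell (0), 4 duct (0), 5 endothelial (2), 6 immune (1), 6 stromal (0) and 2 glial markers (0 unadjusted). Over all genes, 2710 of 14027 had an unadjusted limma p under 0.05. The 5 endothelial markers all lay above 0. Their sums were 6.56 to 6.87 RPKM in ZT4 alpha cells and 3.98 to 6.24 RPKM in ZT0 alpha cells, and 3.23 to 3.84 RPKM in ZT4 beta cells and 2.44 to 2.89 RPKM in ZT0 beta cells, without overlap in either cell type. The part of other cell types in the results above was not tested.

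**Figure D4:**
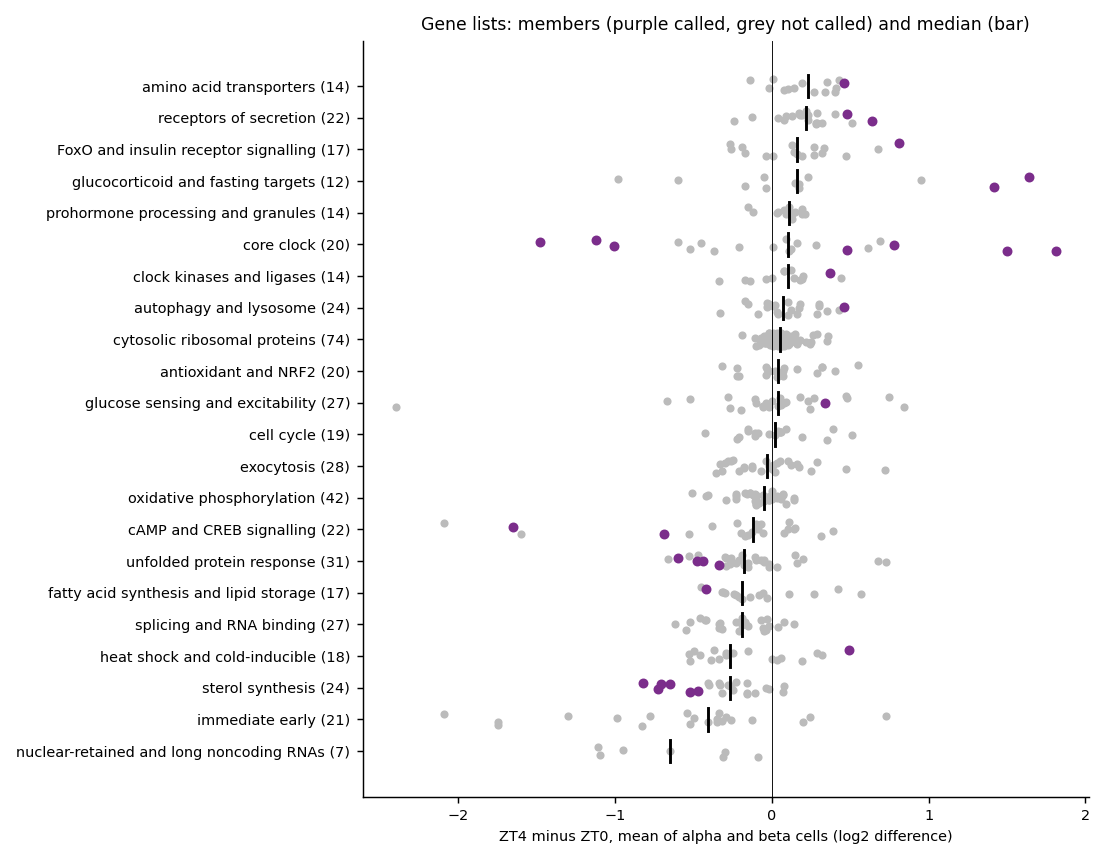
Log2 difference between ZT4 and ZT0, mean of alpha and beta cells, for the members of 22 pathway lists (number measured in parentheses), called members in purple, others in grey, medians as bars. Core clock genes spread to both sides, the called sterol synthesis and unfolded protein response genes all lie below 0, and ribosomal protein genes cluster around 0.

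Each cell type was also taken alone. In alpha cells 62 genes (0.442%) changed, 38 higher (0.271%) and 24 lower (0.171%) at ZT4, with 1455 at an unadjusted p under 0.05. In beta cells 229 genes (1.63%) changed, 66 higher (0.471%) and 163 lower (1.16%), with 2011 unadjusted. The steps shared 22 genes, all in the same direction, which was 35.5% of the alpha and 9.61% of the beta calls, where alpha and beta libraries may come from the same islets. The alpha count ranged down to 6 without replicate 1 of ZT0 alpha and 10 without replicate 2 of ZT4 alpha, and the beta count between 40 without replicate 2 of ZT4 beta and 995 without replicate 1 of ZT0 beta.

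Beside the genes above, the alpha step named Vsnl1, a neuronal calcium sensor, at 3.03 and 2.85 RPKM in ZT4 alpha cells and 1.18 and 0.877 RPKM in ZT0 alpha cells (log2 difference 1.44, limma adjusted p = 0.0046). Its step in beta cells was 0.33 (adjusted p = 0.47), and the difference between the steps did not pass (adjusted p = 0.59). Cln6 of the endoplasmic reticulum rose in alpha cells (1.01, adjusted p = 0.019). Dhx29, a helicase of translation initiation, fell in alpha cells (-0.81, adjusted p = 0.0052), as did the mitochondrial carrier gene Slc25a29 (-1.11, 0.014), Larp1b (-0.76, 0.019) and the nuclease gene Aen (-1.1, 0.02). Leaving out replicate 1 of ZT0 alpha ended the calls of Cln6, Dhx29, Slc25a29, Larp1b and Aen.

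The beta step named Ror1, a receptor tyrosine kinase-like gene, at 3.5 and 3.46 RPKM in ZT4 beta cells and 1.74 and 1.97 RPKM in ZT0 beta cells (log2 difference 0.9, limma adjusted p = 0.012). Snn (1.09, adjusted p = 0.011) and the histone demethylase gene Jhdm1d (0.52, adjusted p = 0.011) rose there too. Ticam1, an adaptor of Toll-like receptors, had 3.3 and 2.82 RPKM in ZT4 beta cells and 6.43 and 7.83 RPKM in ZT0 beta cells (log2 difference -1.2, adjusted p = 0.00059). In alpha cells Ticam1 had 5.19 and 6.32 RPKM at ZT4 and 5.15 and 5.78 RPKM at ZT0, which overlapped. The call of Ror1 and that of Snn ended without replicate 2 of ZT4 beta, and that of Jhdm1d without replicate 1 of ZT4 beta or replicate 2 of ZT0 beta.

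The test of the difference between the alpha and the beta step called 0 genes with limma, with 622 (4.43%) at an unadjusted p under 0.05, and 0 with limma-voom on recovered reads. Ticam1 came nearest, with an alpha step higher than the beta step by 1.27 on the log2 scale (adjusted p = 0.2), and it was the 1 gene called with the islet preparation as a block (0.00713% of genes, adjusted p = 0.013). The next in order were Rasgef1b, a guanine nucleotide exchange factor gene (1.38), Trabd (0.7), Rusc1 (0.68), the autophagy initiation gene Atg13 (0.97), Osgin1 (1.13), the autophagosome gene Wipi1 (0.91) and the death receptor signalling inhibitor gene Cflar (0.84), each at adjusted p = 0.56. Rasgef1b had 2.48 and 3.15 RPKM in ZT4 alpha cells and 1.45 and 1.36 RPKM in ZT0 alpha cells, and 1.74 and 1.61 RPKM in ZT4 beta cells and 2.35 and 2.19 RPKM in ZT0 beta cells, so that the libraries parted in opposite directions. All 8 of these genes had a larger value in the alpha step than in the beta step. A difference between the cell types in any of them was not established at this number of libraries.

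Against the other intervals of 4 h, fitted in the same model, the ZT0 to ZT4 step held 641 calls (4.57%) beside 63 (0.449%) from ZT4 to ZT8, 46 (0.328%) from ZT8 to ZT12, 2876 (20.5%) from ZT12 to ZT16, 15 (0.107%) from ZT16 to ZT20 and 1 (0.00713%) from ZT20 to ZT0. Neighbouring intervals share libraries, and the counts were not tested against each other. The spread was pooled over all groups, although replicates lay furthest apart at ZT0 and ZT4. At an unadjusted limma p under 0.05 the counts were 2710, 1876, 1661, 5011, 1051 and 626 in the same order. With the islet preparation as a block the counts were 209, 8, 15, 1476, 9 and 0 in the same order.

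The named genes kept different levels after ZT4. Mean RPKM of Cpt1a in alpha cells was 5.2 at ZT0, 20.3 at ZT4, 18.7 at ZT8, 15.7 at ZT12, 5.34 at ZT16 and 6.21 at ZT20, and in beta cells 6.93, 16.4, 19.8, 19.6, 7.84 and 7.2 at the same times. The level of ZT4 was thus held until ZT12 in the means of 2 libraries. Srm in beta cells had a mean of 31.3 RPKM at ZT0, 11.2 at ZT4, 20.1 at ZT8, 16.1 at ZT12, 30.8 at ZT16 and 27.3 at ZT20, and Bhlha15 in beta cells had 27.2, 7.14, 13, 9.75, 30.5 and 25.6. For both, ZT4 was the lowest of the 6 means. Nr1d2 in beta cells was still higher at ZT8 (52.7 RPKM) and ZT12 (52.6 RPKM) than at ZT4 (28.4 RPKM), and Cry1 in alpha cells was lower at ZT8 (3.85 RPKM) and ZT12 (3.28 RPKM) than at ZT4 (5.49 RPKM).

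**Figure D5:**
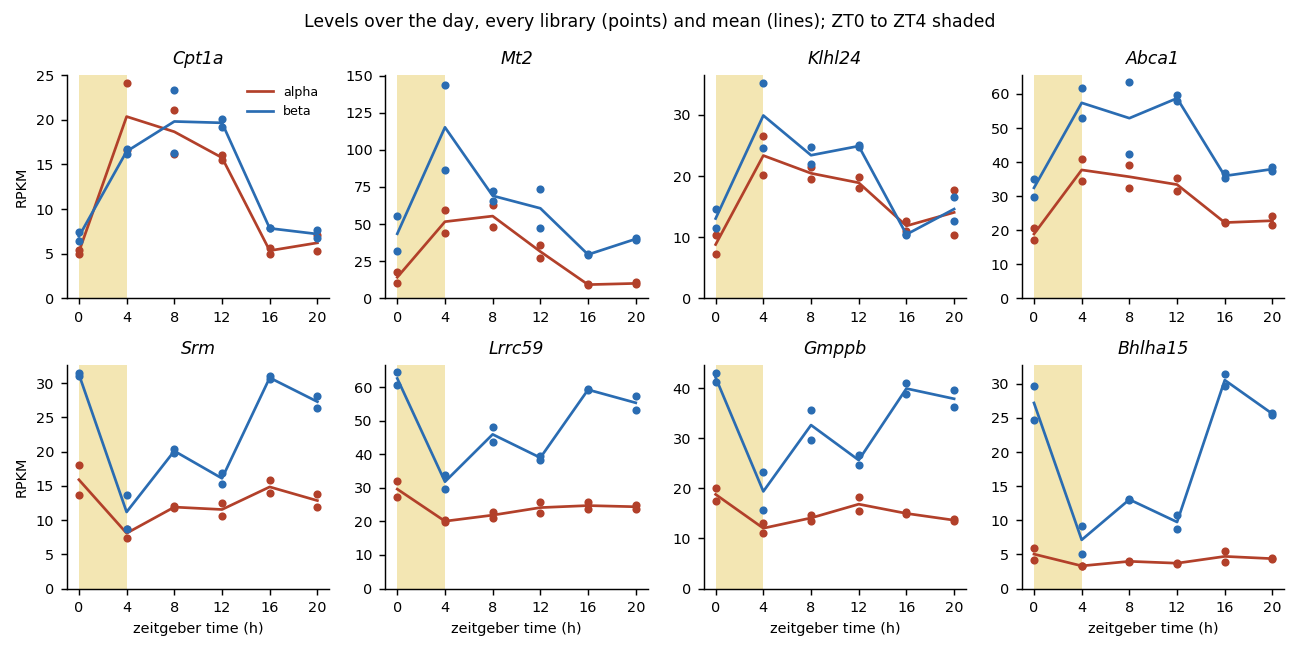
RPKM of 8 genes over zeitgeber time in alpha and beta cells, every library as a point and means of 2 libraries as lines, with the interval from ZT0 to ZT4 shaded. Cpt1a, Klhl24 and Abca1 stay high until ZT12, and Srm, Lrrc59, Gmppb and Bhlha15 are lowest at ZT4 in beta cells.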

How the data were processed

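Total RNA of sorted cells was made into stranded libraries after depletion of ribosomal RNA, as stated by the labels' protocols. STAR, edgeR and mm10 are what the submitters' processing notes name; they give no versions, annotation or gene filter. Values deposited by the authors are log2 values, read as log2 RPKM with a prior count of mean 2; all 24 sample columns were mapped. Whole reads were recovered for 14027 of 14027 genes (within 0.001 of whole numbers, share 100%, median 206 reads per gene) and give the RPKM printed. Intervals are not given because replicates differed beyond sampling noise (chi-square per gene 35.5 to 53.7).

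The planned tests assumed counts or linear values; the deposited values were already log2 and were used as such. limma 3.58.1 in R 4.3.3 (trend, robust) was fitted to 12 group means over 24 libraries (12 residual degrees of freedom); contrasts were ZT4 minus ZT0 in the mean of the cell types, in each cell type, and alpha step minus beta step. Adjustment was by Benjamini-Hochberg over 14027 genes, with a threshold of 0.05. limma-voom on the recovered reads was the count-based alternative and called 625 genes in the mean of the cell types. Because of the prior count, log2 differences come out too small where reads are few. The islet preparation block used duplicateCorrelation (consensus 0.37), since labels do not state that same-numbered alpha and beta libraries share islets. This consensus is a single value for all times. Deviations of same-numbered libraries correlated by 0.7 at ZT0, 0.52 at ZT4 and 0.45 at ZT8, but by 0.15, 0.15 and 0.025 at ZT12, ZT16 and ZT20. The block may therefore correct too little in the mean of the cell types at ZT0 and ZT4.

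Named were all core clock genes; the 14 genes of lowest p in each direction in the mean step with a mean log2 RPKM above 0; 8 in each direction per cell type; the 8 of lowest p of the difference; up to 4 called (or 2 lowest-p) genes per list; and Ins1, Ins2, Gcg, Sst and Ppy. Predicted genes were not named, and some genes of the rule are counted in the totals but not reported here. Fkbp5, Tsc22d3, Sgk1, Pdk4, Insig1, Fos, Hsd17b7 and Fdps were added with their values known. The comparison, lists and tests were chosen with earlier results of these data known. Of the 14027 identifiers, 13802 matched GENCODE of GRCm38, the assembly of mm10; positions count from 1. Some genes belong to several lists. Promoters are those of RefSeq. The model was run on simulated reads of independent libraries with the same dispersion in every group. That run could not test the larger spread or the shared deviations of the ZT0 and ZT4 libraries. Figures used matplotlib 3.10.9.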

Additional observations from a re-analysis of the deposited data

How the results depend on the processing

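The counts of called genes depended on which libraries set the spread. For the mean of the cell types (641), the 8 libraries alone gave 5, an additive model in them 7, means per islet preparation 10, array weights 32, the islet preparation as a block 209, and a fold of at least 1.5 gave 239. For the alpha step (62), the 8 libraries gave 0, array weights 2, median centring 39 and limma without trend or robust estimation 32. For the beta step (229), the 8 libraries gave 0 and array weights 6. For the difference of steps (0), the islet preparation block gave 1. The cause of these shifts was not tested. The 8 libraries leave fewer residual degrees of freedom. Their replicates also lay further apart, with a median SD on the log2 scale of 0.159 to 0.248, against 0.0726 to 0.134 in the other groups. A spread pooled over all groups is thus smaller than that of the groups compared. Leaving out 1 library, or replicate 1 or 2 of a time in both cell types (the lone library then assumed to vary like other groups), gave 119 to 2304 in the mean, 283 to 1208 with 1 library left out, 6 to 124 in alpha, 34 to 1579 in beta, and 0 to 2 for the difference. Without replicate 2 of ZT4 in both cell types the mean step had 119, and without replicate 1 of ZT0 in both 2304. The other scalings, prior counts, filter and limma-voom gave 599 to 687 in the mean. No called gene of the naming rule changed sign in any setting run.

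The replicate numbers did not pair ZT4 with ZT0 libraries (correlation of deviations -0.5 in alpha and -0.62 in beta cells). The replicate number as a block gave 629 in the mean, 53 in alpha, 215 in beta and 0 for the difference; in the 8 libraries alone this replicate block gave 0, 0, 0 and 0, and a crossed pairing of replicates, added after seeing the data, gave 472, 8, 26 and 0. With 8869212 or more reads per library, sequencing depth limits mainly genes with few reads, such as Rorb and Rsph4a.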

Other observations

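Some groups of genes came to notice only among the called genes, and their lists were compiled after the values were seen, so the counts below are descriptions without a test. Of 90 ribosome biogenesis factors, 22 fell and 0 rose between ZT0 and ZT4 in the mean of the cell types (limma, adjusted p under 0.05; 2.34% of all genes fell), with a median log2 difference of -0.24, and 11 fell with the islet preparation as a block. Beside Rrp12 and Bysl these were, among others, Nop2 (-0.47), which had 9.14 and 9.31 RPKM in ZT4 alpha cells and 14 and 12.2 RPKM in ZT0 alpha cells, Nop16 (-0.79), Bop1 (-0.76) and the fibrillarin gene Fbl (-0.58). Polr3d (-0.55) fell among 23 subunits of RNA polymerases I and III, of which 9 lay above 0 (median -0.05). The transfer RNA synthetase genes Hars (-0.53), Wars (-0.38) and Rars (-0.32) fell among 20, of which 10 lay above 0 (median -0.01). Neither of these lists fell as a whole. The 74 cytosolic ribosomal protein genes, by contrast, held 0 calls (0 at an unadjusted p under 0.05).

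Of 57 genes of signal peptide recognition, translocon and vesicle coats, 12 fell and 0 rose (5 with the block), among them Tmed9 (-0.52), Sec23b (-0.51), the translocon gene Sec61a1 (-0.43) and Kdelr3 (-0.88). Of 45 genes of N-glycan precursor synthesis and transfer, 6 fell (3 with the block), with Mogs (-0.58) and Mpi (-0.44) beside Gmppb and Uap1. Of 31 proteasome subunits, 2 fell, Psmd13 (-0.41) and Psmc4 (-0.54), and 0 had a value above 0. In the other direction, 4 of 26 genes of mitochondrial fatty acid oxidation rose and 0 fell (3 with the block). Acaa2, the last thiolase of the pathway, had 16.8 and 19.8 RPKM in ZT4 alpha cells and 10.3 and 7.3 RPKM in ZT0 alpha cells (log2 difference in the mean 0.84), and Slc25a20 (0.76), the carnitine carrier, and Hadh (0.53) joined Cpt1a.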
